A study of Drosophila melanogaster with 23 samples.

Results

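The brains of 20-day-old female flies were compared with those of 5-day-old females over every gene of the deposited counts. The comparison rests on 6 of the 23 libraries of the series, chosen by sex and age alone, with 3 replicates at each age. All flies were wild-type Drosophila melanogaster of the strain Canton-S, kept without drug or genetic treatment. Each library was made from the total RNA of 18 whole brains, dissected and pooled, so that a replicate is a pool and differences between single flies cannot be seen. The series as a whole followed both sexes at 5, 20, 30 and 40 days after eclosion and asked how the transcripts of the brain move with age. A library carries its sex, age and replicate letter as its name, F20A being replicate A of 20-day-old females.

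A fly is young and fully fertile a few days after eclosion, and an age of several weeks lies in the middle of its adult life. The fly brain is built mostly of neurons, of which the cholinergic and GABAergic kinds are abundant, with glia, a surrounding fat body and the retina close by. Transcripts known to move with age in flies include those of stress and immune proteins, of mitochondrial energy production and of the synapse.

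The counts of the 3 libraries of 5 days summed to 23506695, 24989680 and 28687450, and those of 20 days to 12316789, 16036581 and 13333622. Depth and age moved together, and with all libraries thinned to the same total 287 genes were called in place of the 312 described below. Levels below are CPM, the counts of a gene scaled to a common library size, after edgeR's TMM scaling, and a level of 0 allows up to 3 counts of a library's total, which covers counting error only. In females 10505 genes passed edgeR's filter on low counts. A gene is said to have changed when it passed a 5% false discovery rate in the quasi-likelihood test of edgeR for any difference among the 4 ages of females and also in that for 20 against 5 days. Levels are given for replicates A, B and C in this order, means with the SD over n = 3 libraries, and log2 fold changes with their standard error (SE). In RNA from whole brains, fewer cells of a type and less RNA per cell cannot be told apart.

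The libraries fitted their labels for sex, with the yolk protein gene Yp1 high and the male dosage compensation RNA roX2 close to 0 in all 6. Neuronal and glial identity genes were present in each of them. Several libraries stood apart from the others of their age. The summed level of 12 gut genes was 23149.7 CPM in F5B, against 98.0 CPM in F5A, 26.2 CPM in F5C and 195 to 2661 CPM at 20 days. In F5C the summed level of 11 neuronal genes was 9581 CPM, against 5704 and 5988 CPM in F5A and F5B and 4276 to 6159 CPM at 20 days. Retina genes summed to 33461, 9045 and 6596 CPM at 5 days and to 17151 to 31971 CPM at 20 days. Fat body and yolk genes summed to between 25797 and 69314 CPM at 5 days and 26595 and 72011 CPM at 20 days. For muscle the ranges were 974 to 2662 CPM and 954 to 2052 CPM, and for haemocytes 2141 to 3029.9 CPM and 2164 to 2365 CPM. No member of these lists was without counts at either age, and no gut, muscle, fat body, retina or haemocyte gene changed by edgeR's test, although at an unadjusted p under 0.05 there were 1 of 12 gut, 3 of 13 haemocyte and 2 of 9 fat body genes higher and 1 haemocyte, 2 of 24 muscle and 1 of 25 retina genes lower. DESeq2 called 1 gut, 2 haemocyte and 1 fat body gene higher and 2 muscle and 1 retina gene lower. Yet 11 of the 12 gut genes had fold changes below 0, with a median of -3.04, which was 4.98 without F5B. Retina genes were above 0 for 20 of 25, with a median of 0.48. The medians of muscle, fat body and haemocyte genes were -0.34, 0.13 and -0.07.

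Of the 10505 genes tested, 312 changed (2.97%), of which 120 rose (1.14%) and 192 fell (1.83%). Rises were the larger, with a median log2 fold change of 1.08 and 65 of them at least 2-fold. Falls had a median of -0.76, and 27 were at least 2-fold. The median of all genes tested was -0.04, and 46.2% of them had fold changes above 0. At an unadjusted p under 0.05 there were 2174 of the 10505 genes, in either direction. The counts for gene lists below stand against these shares over all genes. The 3 values of 20 days did not overlap the 3 values of 5 days for any of the 312 genes, which was so for 25.5% of all genes tested. The genes that fell were nearly all protein coding (190 of 192), while the 120 rises held 100 protein-coding genes and 18 noncoding genes or pseudogenes, 8 of them small nucleolar RNAs.

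**Figure D1:**
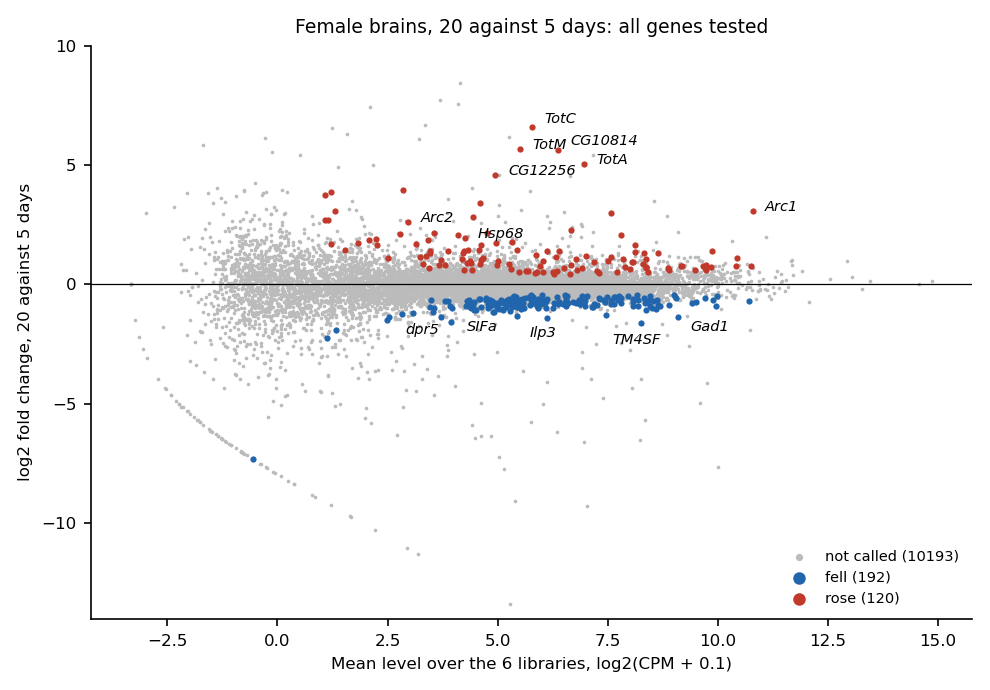
Each point is 1 of the 10505 genes tested in female brains, with the mean level over the 6 libraries of 5 and 20 days on the horizontal axis (log2 of CPM + 0.1) and edgeR's log2 fold change of 20 against 5 days on the vertical axis. The 120 genes that rose (red) reach further from 0 than the 192 that fell (blue), other than CG8791, which lies with other genes that have no count at 20 days on the curve at the lower left, where a fitted fold change is not a measured size.

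The number of calls rested on the libraries. It was 27 without F5B (10 rose and 17 fell), 73 without F5A and 139 without F5C, and 19, 30 and 59 without F20A, F20B and F20C. The libraries of 30 and 40 days enter through the shared estimate of the spread, the test among the 4 ages, the filter and the scaling. Without F30A, F30B, F40B and F40C the number of calls was 148, 175, 89 and 103. Without the 4 female libraries in which the midgut gene mex1 exceeded 10 CPM, F5B among them, it was 7, and with the 6 libraries of 5 and 20 days alone it was 2. DESeq2, run with its likelihood ratio and Wald tests, called 913 genes (413 rose and 500 fell), which held all 312. With library totals in place of TMM the split was 97 rises and 259 falls.

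A set of 14 genes was called whichever of the 12 female libraries was left out. TM4SF encodes a tetraspanin, a membrane protein that crosses the membrane several times, and lies at chr2R:23878197-23880860 on dm6. Its level was 447, 438 and 504 CPM at 5 days and 143, 148 and 164 CPM at 20 days. The groups lay far apart and the 3 libraries of 20 days were close to each other (log2 fold change of -1.61 with an SE of 0.16 and adjusted p = 0.00386), a 3.05-fold fall. CG12256, a protein-coding gene with no name of its own at chr3R:12225282-12226339, was barely present in young brains, at 2.87, 2.24 and 2.31 CPM. At 20 days it stood at 42.8, 76.5 and 58.5 CPM (log2 fold change of 4.58 with an SE of 0.47 and adjusted p = 0.00386), a 23.9-fold rise. These were the only genes called from the 6 libraries alone. The exons of each overlap an exon of a gene on the other strand, CG4882 for TM4SF and an antisense RNA for CG12256, and since the strand setting of the counting was not given in the sources used here, their reads cannot be told apart from those of the partner. CG4882 itself fell, by 0.78 on the log2 scale, from a mean of 40.0 CPM.

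The other falls of this set were of moderate size and of little spread. AP-2mu, the medium subunit of the clathrin adaptor that gathers cargo for endocytosis, was at 165, 164 and 164 CPM at 5 days and 80.4, 95.3 and 89.6 CPM at 20 days (log2 fold change of -0.89 with an SE of 0.10 and adjusted p = 0.00386). alphaTub84D, one of the alpha tubulins of microtubules, was at 195, 187 and 185 CPM and then at 92.4, 103 and 96.9 CPM (log2 fold change of -0.96 with an SE of 0.11 and adjusted p = 0.00386). Both pairs of groups were separated by more than their whole ranges. Rop, the fly Munc18 that binds syntaxin before vesicle fusion, fell by 0.79 on the log2 scale (adjusted p = 0.0122) from 412 ± 26.1 CPM to 239 ± 9.61 CPM (SD, n = 3). gammaSnap1, a SNAP that helps take used SNARE complexes apart, fell by 0.80 (adjusted p = 0.0135). The unnamed genes CG10440 and CG10137 had log2 fold changes of -1.15 and -0.93, each with an adjusted p of 0.00386. All of these values come from edgeR's quasi-likelihood test.

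Among the rises of the set, Hsp68, a member of the inducible Hsp70 chaperone family, was at 7.25, 9.22 and 7.14 CPM at 5 days and 26.1, 22.5 and 42.2 CPM at 20 days (log2 fold change of 1.94 with an SE of 0.28 and adjusted p = 0.0157). The lowest library of 20 days was above the highest of 5 days, as for every gene that rose. The gene dm, the fly Myc transcription factor that drives ribosome production and growth, was at 116, 131 and 107 CPM and then at 323, 243 and 218 CPM (log2 fold change of 1.14 with an SE of 0.16 and adjusted p = 0.0135). CG5080 rose from 158 ± 16.7 CPM to 401 ± 59.7 CPM (SD, n = 3, adjusted p = 0.00386). The remaining rises, 2 small nucleolar RNAs and the host gene Uhg5, belong to the nucleolar group. Exons of Hsp68, dm, gammaSnap1 and CG10137 also overlap exons of a gene on the other strand, and the same uncertainty holds for them.

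**Figure D2:**
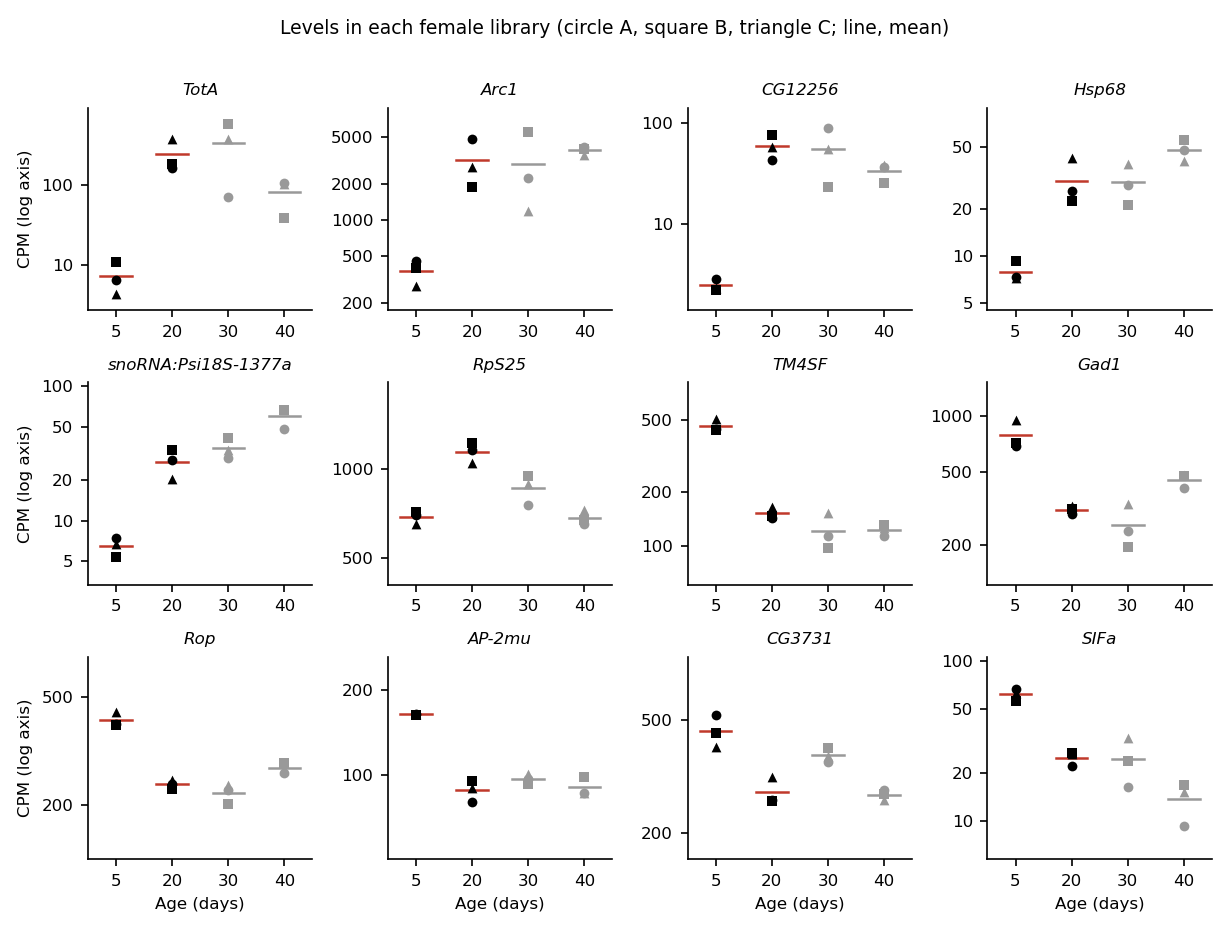
Level in CPM (log axis) of 12 genes in each of the 12 female libraries by age in days, with a marker for each replicate and a line for the mean; 5 and 20 days are black and 30 and 40 days, which were not compared here, are grey. All 12 are genes that changed, and the 3 points of 20 days lie apart from the 3 points of 5 days in every panel, as for every such gene. CG12256 goes from 2.48 to 59.3 CPM in the mean while TM4SF goes from 463 to 152 CPM.

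Among genes with a name of their own the largest rises were those of 3 secreted stress proteins. Turandot genes encode small humoral proteins that the fat body releases after heat, infection or injury under JAK-STAT control. TotA was at 6.61, 10.8 and 4.38 CPM at 5 days and 161, 181 and 378 CPM at 20 days (log2 fold change of 5.04 with an SE of 0.84 and adjusted p = 0.0250). TotC, its neighbour on chromosome arm 3R, went from 1.5, 0.665 and 1.19 CPM to 57.0, 81.3 and 189 CPM (log2 fold change of 6.6 with an SE of 1.10 and adjusted p = 0.0261), and TotM on 2L from 2.66, 1.2 and 1.33 CPM to 100.2, 46.1 and 120.2 CPM (log2 fold change of 5.68 with an SE of 0.93 and adjusted p = 0.0247). The replicates of 20 days differed, F20C being highest for all 3 genes, yet each was far above every young library. TotX, the fourth member tested, was at 6.74, 4.11 and 1.05 CPM and 19.1, 13.4 and 8.02 CPM and was not called (log2 fold change 1.77, adjusted p = 0.154). In all, 3 of the 4 members rose, with a median log2 fold change of 5.36 over the list, against -0.04 over all genes. The 3 calls were lost without any 1 of the 6 libraries of 5 and 20 days, where the list's median was between 5.01 and 5.63. TotA and TotC share sequence with other members of their cluster, and how reads were split between them is uncertain.

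Of the immune genes in 3 other lists, 1 was called. Of 24 genes for antimicrobial and immune-induced peptides, edgeR called none (at an unadjusted p under 0.05 there were 3 higher and 0 lower, and DESeq2 called 2 higher), and the spread between pools was wide. Their median of 0.41, with 15 of 24 above 0, rested on single libraries. Without F5A it was 2.56, with 24 of 24 above 0 and 2 called, and without F5B, F5C or F20A it was -0.09, -0.14 and -0.21. AttC, an antibacterial attacin, was at 820.4, 62.2 and 8.70 CPM at 5 days and 439, 216 and 441 CPM at 20 days, so that F5A lay above every older library and F5C far below. Of 9 peptidoglycan recognition proteins, the sensors of bacterial cell wall, none was called (4 higher at an unadjusted p under 0.05, 1 higher by DESeq2), and 1 was called without F5A. Among 21 genes of the Toll and Imd pathways, 20 had fold changes above 0 with a median of 0.34, and ird5, the kinase that activates the transcription factor Relish, was the only one called (log2 fold change 0.62, adjusted p = 0.0451). That call was lost without each library except F30C.

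The next 5 rises were chosen singly, after their values were seen, and stand for no list. crq, a scavenger receptor of the CD36 family by which phagocytes take up dying cells, rose from 177 ± 19.1 CPM to 296 ± 30.1 CPM (log2 fold change of 0.74 with an SE of 0.13 and adjusted p = 0.0240). ced-6, the adaptor that links the glial engulfment receptor Draper to its signalling, rose from 357 ± 4.77 CPM to 574 ± 29.7 CPM (adjusted p = 0.0240). NimC2, a Nimrod receptor of haemocytes, was lower in level and rose by 1.42 on the log2 scale (adjusted p = 0.0416). Xrp1, a stress-induced transcription factor of the bZIP class, rose by 0.76 (adjusted p = 0.0402), and cnc, the fly Nrf2 that drives antioxidant genes, by 0.53 (adjusted p = 0.0368). cnc was the only gene called of 18 superoxide dismutase and redox genes, 14 of which had fold changes above 0. Without F5B none of these 5 genes was called. None of 13 haemocyte markers was called, and their summed levels at the 2 ages overlapped as given above.

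Small heat shock proteins are chaperones that hold unfolded proteins without ATP. Of 10 tested, 2 fell, 8 had fold changes below 0 and 2 above (5 lower and 1 higher at an unadjusted p under 0.05), with a median of -0.99. Hsp67Bc, which works with the co-chaperone Starvin in protein quality control, was at 20.6, 17.7 and 18.3 CPM at 5 days and 8.61, 5.69 and 7.47 CPM at 20 days (log2 fold change of -1.38 with an SE of 0.24 and adjusted p = 0.0237). Hsp67Ba fell by 0.93 (adjusted p = 0.0471). The strongly heat-inducible Hsp26 and Hsp23 were not called, and the median of the list was -0.38 without F5A. Neither call remained without any 1 of the 6 libraries of 5 and 20 days. Hsp68 was the only one of 17 Hsp70, Hsp60 and Hsp83 chaperone genes called by edgeR. Fold changes were above 0 for 13 of the 17, with a median of 0.54, or 0.28 without F20C. At an unadjusted p under 0.05 there were 7 higher and 0 lower, and DESeq2 called 3 higher. The near-identical Hsp70 copies cannot be told apart with certainty by read counts.

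Arc1 was abundant already in young brains and rose further. It encodes a capsid-forming protein derived from a retrotransposon Gag, which carries its own mRNA between cells at the synapse and is induced by neuronal activity. It lies at chr2R:14357927-14360297 on dm6, beside its relative Arc2. Its level was 452, 395 and 279 CPM at 5 days and 4805, 1906 and 2803 CPM at 20 days (log2 fold change of 3.08 with an SE of 0.54 and adjusted p = 0.0250). The lowest older library was several times the highest young one. Arc2 went from 2.32, 2.95 and 1.22 CPM to 22.3, 10.6 and 7.07 CPM (log2 fold change of 2.62 with an SE of 0.61 and adjusted p = 0.0488). puc, the phosphatase that JNK signalling induces and that limits JNK in turn, rose from 69.3 ± 6.06 CPM to 113 ± 19.7 CPM (adjusted p = 0.0416).

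These 3 were the only rises among 10 activity-regulated genes, whose median was 0.60. Hr38, a nuclear receptor that follows neuronal firing closely, was at 60.8, 49.4 and 96.2 CPM and 220.1, 46.8 and 76.6 CPM, with F20A far above all others, and the zinc finger gene sr, the fly Egr, had a log2 fold change of 0.10 (adjusted p = 0.878). The 3 calls were lost without any 1 of the 6 libraries of 5 and 20 days, and without F20A the median was 0.18. In males the median of the list was -0.05, and the log2 fold change of Arc1 was 1.23. The difference between the sexes for Arc1 had an unadjusted p of 0.00903 and an adjusted p of 1.0 in the interaction test of edgeR.

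The nucleolar RNA group Psi18S-1377 rose as a whole. Small nucleolar RNAs (snoRNAs) of this H/ACA type guide the conversion of uridine to pseudouridine in ribosomal RNA, here at 1 site of the 18S RNA, and the 5 copies a to e lie one after another in introns of the ribosomal protein gene RpS7, between positions 30206976 and 30207883 of chromosome arm 3R. Copy a was at 7.51, 5.36 and 6.76 CPM at 5 days and 28.2, 33.4 and 20.4 CPM at 20 days (log2 fold change of 2.06 with an SE of 0.23 and adjusted p = 0.00386). Copy e was at 5.32, 4.44 and 4.04 CPM and 16.3, 20.5 and 13.4 CPM (log2 fold change of 1.86 with an SE of 0.25 and adjusted p = 0.0122). The log2 fold changes of b, c and d were 1.33, 1.87 and 0.83, with no overlap between ages, as for every gene that changed. The copies resemble each other in sequence, so that reads may be split between them in an uncertain way.

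Their host RpS7 was not called (log2 fold change 0.37, adjusted p = 0.331), with 1312, 1630.0 and 868 CPM at 5 days and 1721, 1636 and 1584 CPM at 20 days. All 5 copies rose, with a median of 1.86, and 2 to 5 of them were called with 1 library left out, 2 without F5B, 3 without F20A and 3 without F20B. With a trend of counts with exon length removed from each library, 4 were called and the median was 1.24. Of 94 other snoRNAs tested 3 rose, snoRNA:Psi28S-3436b (log2 fold change 1.91, adjusted p = 0.0295), snoRNA:Psi28S-1175a (log2 fold change 1.70, adjusted p = 0.0367) and snoRNA:Me18S-C1831 (log2 fold change 3.86, adjusted p = 0.0371). Their median was 0.50, which became 1.09 without F5C and -0.003 after removal of the length trend, when 1 was called. The count was 0 without F5A, F5B or any library of 20 days, 2 without F5C, 3 without F30C and 1 without each other library. Uhg5, a noncoding gene whose introns hold 11 snoRNAs, rose from 13.7 ± 1.08 CPM to 25.6 ± 2.0 CPM (SD, n = 3, adjusted p = 0.0193), and Uhg1, another such host gene, rose by 1.05 (adjusted p = 0.0491). Of the fits that leave out a library, Uhg1 was called only without F30A or F30B.

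Transcripts of the ribosome itself were higher at 20 days. Of 83 cytosolic ribosomal protein genes 9 rose and none fell, against 1.14% and 1.83% of all genes tested. Fold changes were above 0 for 78 of the 83, against 46.2% of all genes, and the median was 0.38. RpS25 of the small subunit was at 696, 716 and 649 CPM at 5 days and 1163, 1229 and 1045 CPM at 20 days (log2 fold change of 0.74 with an SE of 0.12 and adjusted p = 0.0223). RpS27 went from 613, 772 and 462 CPM to 1142, 1079 and 1019 CPM (log2 fold change 0.81, adjusted p = 0.0357). RpS21 rose by 0.86, RpL26 by 0.78 and RpS29 by 0.76, and RpL36A, RpL35, RpL40 and RpL21 by 0.62 to 0.74. The count was 0 without F5A, F20A or F20B, 1 without F5B, F20C, F40B or F40C, 4 without F5C and 5 without F30A or F40A, and the median lay between 0.25 without F5C and 0.55 without F5B. These genes are short, with a median exon length of 922 bases, and with the length trend removed 11 rose, 1 fell and the median was 0.27. In the libraries of 40 days, compared with the same 5-day libraries, the median was -0.38.

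Mitochondrial energy genes were lower at 20 days. The respiratory chain passes electrons from NADH and succinate to oxygen through complexes I to IV and pumps the protons that ATP synthase uses. Of 30 complex I subunits 5 fell and none rose, with a median of -0.34, and of 23 subunits of complexes II to IV and cytochrome c 5 fell and none rose, with a median of -0.37. CG3731, a core subunit of complex III, was at 519.8, 449.6 and 402 CPM at 5 days and 263, 259.9 and 316 CPM at 20 days (log2 fold change of -0.71 with an SE of 0.13 and adjusted p = 0.0250). ND75, the large iron-sulphur subunit of complex I, was at 345, 324 and 311 CPM and 191, 211 and 235 CPM (log2 fold change of -0.62 with an SE of 0.11 and adjusted p = 0.0237). The other complex I falls were CG1970, ND42, CG12203 and CG6020, by 0.49 to 0.68 on the log2 scale. SdhA and SdhB, the flavoprotein and iron-sulphur subunits of complex II, fell by 0.55 and 0.53, CG4169 of complex III by 0.64 and levy of complex IV by 0.48.

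The 10 falls were 1.39- to 1.64-fold in size. For each of them the libraries of the 2 ages did not overlap, which was so for all 312 genes that changed. Without any 1 of F5A, F5B, F20A and F20B no gene of either list was called. Without F5C the counts were 7 for complex I and 6 for complexes II to IV, and without F20C 1 for each list. The count for complexes II to IV was 1 without F40B or F40C, 2 without F30A, F30B or F40A and 3 without F30C, and the complex I count was 2 without F30A, F40B or F40C and 3 without F30B. Muscle, which is rich in mitochondria, had a median log2 fold change of -0.339 over 24 marker genes, of which none was called by edgeR (at an unadjusted p under 0.05 there were 0 higher and 2 lower, and DESeq2 called 2 lower), and its part in the result was not tested. With the length trend removed 12 genes of each list fell. Oscp, a stalk subunit, was the only one of 13 ATP synthase genes to fall (log2 fold change -0.81, adjusted p = 0.0357). Their count was 0 without F5A, F5B, any library of 20 days, F30A, F40B or F40C and 3 without F5C, and DESeq2 called 4 lower. mRpS35 was the only one of 72 mitochondrial ribosomal proteins to fall (log2 fold change -0.66, adjusted p = 0.0295), which was lost without any 1 of the 6 libraries of 5 and 20 days or F40B. A single fall in 72 is no more than the 1.83% of all genes that fell. The list had 56 of 72 genes below 0 and a median of -0.20, and with the length trend removed 4 fell and the median was -0.38.

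In the pathways that feed the chain 5 genes fell. Of 17 citric acid cycle genes 4 fell, with a median of -0.46. Citrate synthase, encoded by kdn, was at 627, 529.8 and 399.7 CPM at 5 days and 266, 296 and 295 CPM at 20 days (log2 fold change of -0.86 with an SE of 0.18 and adjusted p = 0.0367). Aconitase (Acon) went from 914 ± 145 CPM to 542 ± 34.3 CPM (SD, n = 3, adjusted p = 0.0367), and the isocitrate dehydrogenase subunit CG6439 and the dihydrolipoamide dehydrogenase CG7430 fell by 0.54 and 0.55. Pyruvate kinase (PyK) was the only one of 13 glycolytic genes to fall (log2 fold change -0.50, adjusted p = 0.0359). Of the fits that leave out a library, it was called only without F5C or F30C, and DESeq2 called 6 of the 13 lower. The citric acid cycle count was 0 without F5A, F5B, any library of 20 days, F40B or F40C, 1 without F30A and 5 without F5C or F30C. Outside the lists, and chosen after their values were seen, the arginine kinase Argk, which buffers ATP with phosphoarginine, fell from 2064 ± 214 CPM to 1269 ± 68.2 CPM (adjusted p = 0.0371), the outer membrane channel porin by 0.57 and the mitochondrial phosphate carrier Mpcp by 0.63.

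**Figure D3:**
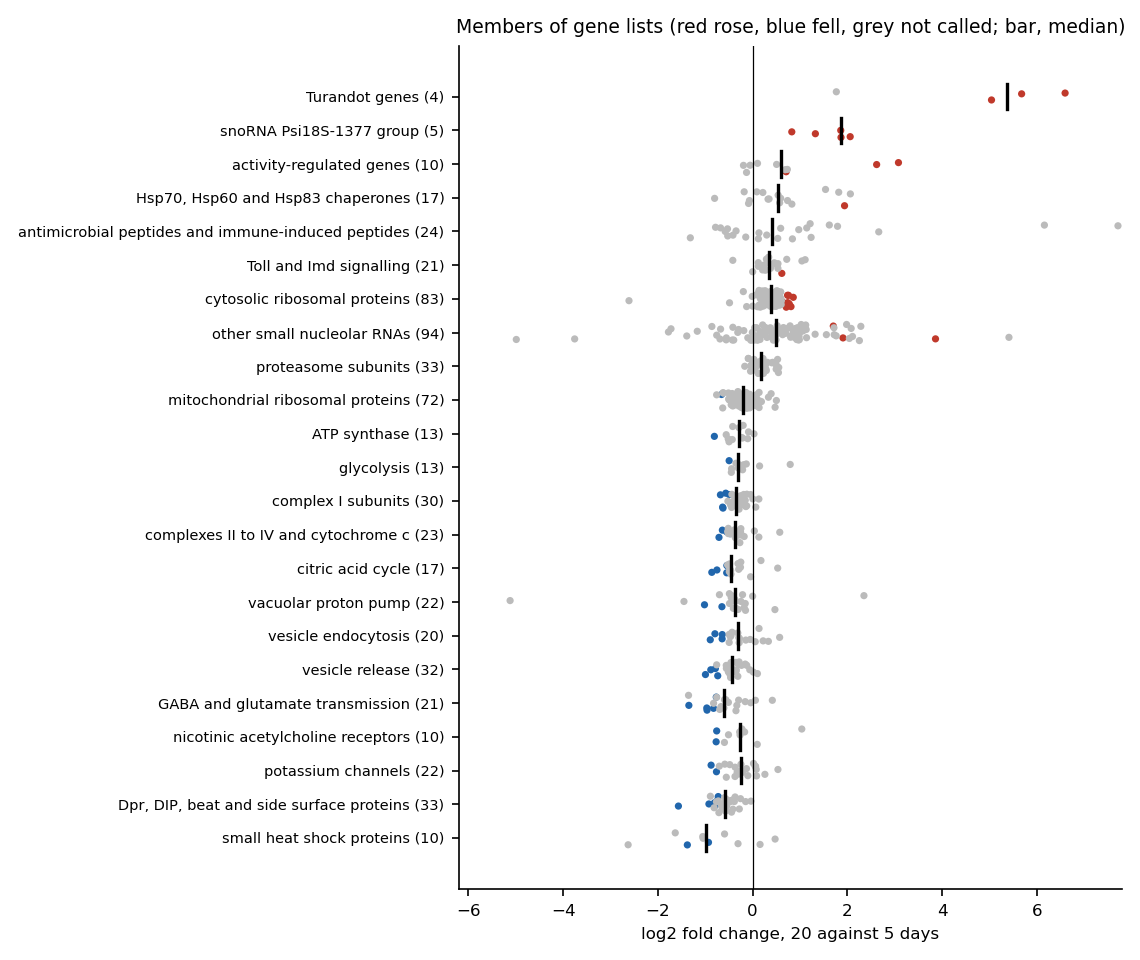
Log2 fold change of 20 against 5 days for every tested member of 23 gene lists (number tested in brackets), with genes that rose in red, genes that fell in blue, other members in grey and the median as a bar. Medians lie above 0 for Turandot genes (5.36), the snoRNA group Psi18S-1377 (1.86), other snoRNAs (0.50) and cytosolic ribosomal proteins (0.38). They lie below 0 for mitochondrial ribosomal proteins (-0.20) and for respiratory chain, citric acid cycle and synaptic genes, for example -0.46 for the citric acid cycle.

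Some genes of synaptic vesicle release fell. Vesicles fuse when SNARE proteins of the vesicle and the membrane zip together, and NSF with its SNAP adaptors then takes the complex apart. Of 32 release genes 6 fell and none rose, 30 had fold changes below 0, and the median was -0.45. These genes are long, with a median exon length of 5732 bases, and with the length trend removed 6 fell and the median was -0.32. comt, the NSF of the nervous system, was at 465, 454 and 532 CPM at 5 days and 216, 239 and 273 CPM at 20 days (log2 fold change of -1.0 with an SE of 0.17 and adjusted p = 0.0223). Rab3, the vesicle GTPase of the active zone, was at 376, 395 and 486 CPM and 219, 286 and 251 CPM (log2 fold change of -0.74 with an SE of 0.16 and adjusted p = 0.0417). nwk, an adaptor of synaptic growth and membrane traffic, fell by 0.88, and alphaSnap and the vesicle chaperone Csp each by 0.45, beside Rop above. Core components had no called change, with a log2 fold change of -0.48 for nSyb (adjusted p = 0.164), -0.56 for Syt1 (adjusted p = 0.175) and -0.28 for the active zone scaffold brp (adjusted p = 0.647).

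Levels of several neuronal genes were highest in F5C. brp was at 474, 545 and 1192 CPM at 5 days, so F5C was well above the other 2 libraries, and at 503, 742 and 570.1 CPM at 20 days. Without F5C the median of the release list was -0.20, and 2 genes were called. The count was 1 without F5B, F20A or F20B, 6 without F30C and 2 without each other library. Of the 11 neuronal identity genes 9 had fold changes below 0 and 2 fell, Gad1 and Cha. The median of the 11 was -0.28 with all libraries and 0.14 without F5C, and elav, a marker of all neurons, had a log2 fold change of -0.12. Glial identity genes were below 0 for 4 of 5, with a median of -0.35, or -0.04 without F5C, and repo among them was at -0.07. Their summed level was 3381, 3403 and 5723 CPM at 5 days and 2816 to 3599 CPM at 20 days, so F5C was highest for glial genes too.

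Vesicle membrane is taken back by endocytosis after release. Of 20 endocytosis genes 4 fell, AP-2mu among them, with a median of -0.30. shi, the dynamin that cuts vesicles from the membrane, was at 769, 809 and 1041 CPM at 5 days and 450.2, 556 and 504 CPM at 20 days (log2 fold change of -0.80 with an SE of 0.16 and adjusted p = 0.0329). Synaptojanin (Synj), which strips the clathrin coat through its lipid phosphatase, fell from 238 ± 25.5 CPM to 152 ± 13.9 CPM (adjusted p = 0.0288), and fwe, a vesicle calcium channel protein, fell by 0.64 (adjusted p = 0.0223). The count was 1 without F5B or any library of 20 days and 2 without F5A, F40B or F40C. Of 22 tested subunits of the proton pump that acidifies vesicles 2 fell, Vha68-1 (log2 fold change -1.02, adjusted p = 0.0223) and Vha100-1 (log2 fold change -0.65, adjusted p = 0.0263), and Vha68-1 went from 516 ± 47.9 CPM to 255.4 ± 42.5 CPM. That count was 0 without F5B, F20A or F20B and 1 without F5A, F20C, F30B, F40B or F40C. Fold changes were below 0 for 19 of the 22 pump genes, with a median of -0.37.

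Genes of inhibitory and excitatory transmission were among the falls. Gad1 makes GABA, the main inhibitory transmitter of the fly brain, from glutamate. Its level was 692, 713 and 959.9 CPM at 5 days and 295, 313 and 324 CPM at 20 days (log2 fold change of -1.35 with an SE of 0.20 and adjusted p = 0.0179), a 2.54-fold fall that was called without any 1 library other than F20A or F20B. The metabotropic GABA receptor genes GABA-B-R2 and GABA-B-R3 were next. GABA-B-R2 was at 171, 162 and 231 CPM and 82.3, 107 and 99.7 CPM (log2 fold change of -0.96 with an SE of 0.16 and adjusted p = 0.0223), and GABA-B-R3 fell by 0.77 (adjusted p = 0.0389). The NMDA receptor subunit Nmdar1 fell by 0.82 (adjusted p = 0.0367) and the AMPA-type subunit GluRIA by 0.97 (adjusted p = 0.0367).

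In all, 5 of 21 GABA and glutamate genes fell and none rose, and the median of -0.61 was -0.28 without F5C. The count was 0 without F20A or F20B, 1 without F20C, 2 without F5B, F5C, F30B or F40B and 3 without F30A or F40C. The vesicular glutamate transporter VGlut was not called (log2 fold change -0.16, adjusted p = 0.754). Cha, which makes acetylcholine, the main excitatory transmitter, fell from 139 ± 22.4 CPM to 80.5 ± 12.6 CPM (adjusted p = 0.0402), and was called only without F30C or F40A when 1 library was left out. Of 10 nicotinic receptor subunits nAChRbeta1 fell by 0.77 and nAChRalpha2 by 0.76, but the median of -0.27 was 0.03 without F5C, and neither gene was called without any 1 of the 6 libraries of 5 and 20 days or without F40B.

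Dpr, beat and side proteins are cell surface molecules of the immunoglobulin superfamily that take part in how neurons find their targets. All 33 dpr, beat and side genes tested had fold changes below 0, with 6 called and a median of -0.59, or -0.36 without F5C. dpr5 fell most, from 20.5, 20.2 and 28.1 CPM to 8.21, 4.95 and 10.1 CPM (log2 fold change of -1.57 with an SE of 0.25 and adjusted p = 0.0223), and dpr2, dpr3, dpr10, dpr20 and beat-VI fell by 0.73 to 0.92. The count was 0 without F5B or F20A, 1 without F5A, F5C, F20B, F20C, F40B or F40C and 2 without F30A or F30B. Of 22 potassium channel genes the leak channels Ork1 (log2 fold change -0.76, adjusted p = 0.0367) and Task7 (log2 fold change -0.88, adjusted p = 0.0367) fell, neither of which was called without any 1 of the 6 libraries of 5 and 20 days, F30A, F40B or F40C. None of 18 sodium and calcium channel genes was called by edgeR (6 lower at an unadjusted p under 0.05, 2 lower by DESeq2). Fold changes were below 0 for 15 of these 18, with a median of -0.35, and for 15 of the 22 potassium channel genes, with a median of -0.25. With the length trend removed the medians were -0.21 and -0.15, and 3 genes of each list fell.

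The next 4 genes were chosen by the size of their fold change or after their values were seen. Gycalpha99B, the alpha subunit of the soluble guanylyl cyclase that nitric oxide switches on, was at 236, 217 and 296 CPM at 5 days and 93.4, 103 and 113 CPM at 20 days (log2 fold change of -1.28 with an SE of 0.17 and adjusted p = 0.0122). It was called without any 1 library other than F20A. Gyc88E, an atypical guanylyl cyclase that responds to oxygen, fell by 0.88 (adjusted p = 0.0459). Cbp53E, a calbindin-like calcium-binding protein of neurons, fell from 449 ± 54.8 CPM to 212 ± 35.9 CPM (adjusted p = 0.0276), and kcc, the potassium-chloride cotransporter that sets the chloride level for GABA signalling, by 0.90 (adjusted p = 0.0417). Cbp53E was not called without any 1 of the 6 libraries of 5 and 20 days, Gyc88E was called in no fit that leaves out a library, and kcc only in that without F5C.

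Of 37 neuropeptide and insulin-like peptide genes 1 rose and 2 fell. SIFa, a peptide made by a small set of neurons of the pars intercerebralis and known for its role in mating and sleep, was at 66.5, 56.5 and 63.4 CPM at 5 days and 21.9, 26.5 and 26.3 CPM at 20 days (log2 fold change of -1.32 with an SE of 0.27 and adjusted p = 0.0345). The gene Ilp3 encodes an insulin made by the insulin-producing cells of the brain and was at 100.3, 90.2 and 112 CPM and 48.1, 32.2 and 32.4 CPM (log2 fold change of -1.42 with an SE of 0.22 and adjusted p = 0.0210). The older libraries were at less than the lowest young one in both cases, as for every gene that fell. Nplp4 rose from 6.69, 6.98 and 5.13 CPM to 13.5, 18.2 and 11.4 CPM (log2 fold change of 1.2 with an SE of 0.22 and adjusted p = 0.0252). The receptor gene CCHa2-R, whose ligand links feeding to insulin release, was low and fell from 7.08, 7.56 and 9.92 CPM to 3.95, 2.95 and 1.81 CPM (adjusted p = 0.0407). SIFa was not called without any 1 of the 6 libraries of 5 and 20 days or F40C, and Ilp3 not without F5B, F20B or F20C. The single rise, Nplp4, was not called without any library of 5 days, F20A or F20B, and CCHa2-R was called in no fit that leaves out a library. An exon of SIFa overlaps an exon of Start1 on the other strand, which was not called (log2 fold change 0.10, adjusted p = 0.699).

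Several further genes rose, but of all 120 rises only 9 were still called without F5B and 9 without F20A. Ance-3, a relative of angiotensin-converting enzyme, was at 28, 16.1 and 9.58 CPM at 5 days and 79.9, 65.9 and 39.1 CPM at 20 days (log2 fold change of 1.79 with an SE of 0.37 and adjusted p = 0.0367), and Dtg, named as a target of the growth factor Dpp, went from 5.58, 5.19 and 2.07 CPM to 19.1, 21.5 and 16.5 CPM (log2 fold change of 2.15 with an SE of 0.36 and adjusted p = 0.0223). The unnamed gene CG3376 rose from 78.4 ± 12 CPM to 178 ± 16.7 CPM (adjusted p = 0.0135). Among the larger falls not yet named, rt, a protein O-mannosyltransferase, fell by 1.22, the centrosomal Map60 by 1.09 and the ecdysone-induced nuclear receptor gene Eip78C by 1.02. CG3376 was not called without F5B or F20A, and the 3 falls not without any 1 of the 6 libraries of 5 and 20 days. The next genes were chosen after their values were seen. mbl, the muscleblind splicing factor, was abundant and rose from 873 ± 194 CPM to 1905 ± 262 CPM (SD, n = 3, adjusted p = 0.0329). aay, a phosphoserine phosphatase of serine synthesis, rose by 1.30 (adjusted p = 0.0247), and Sirup, an assembly factor of complex II, by 1.32 (adjusted p = 0.0222), against the falls of SdhA and SdhB. yki, the coactivator at the end of the Hippo growth pathway, rose by 0.70 (adjusted p = 0.0223). Of 21 learning and memory genes cer, an inhibitor of cysteine proteases needed for long-term memory, rose by 1.02 and the adaptor drk by 0.56. Both were called without F30B or F30C, 1 of them without F5A, F30A or F40A and neither without each other library. The list as a whole had 14 of 21 genes below 0, with a median of -0.20, or 0.02 without F5C. At an unadjusted p under 0.05 there were 3 higher and 6 lower, and DESeq2 called 2 higher and 3 lower.

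The same ages were compared in males, whose libraries share none with the females. edgeR called 4 of 10799 genes (0.037%) by the same rule, with 1474 at an unadjusted p under 0.05, and DESeq2 called 217. Of the 120 genes that rose in females 119 were tested in males and 116 of these had fold changes above 0, with a median of 0.73 against 1.07 in females. All 192 falls were tested and 190 were below 0, with a median of -0.55 against -0.76. Of all male genes 50.9% were above 0. At an unadjusted p under 0.05, 74 of the rises and 130 of the falls had the same direction in males and 0 had the other. The library numbers given by the submitters run in blocks of age that hold both sexes, so that age and anything shared by a block cannot be told apart in either sex.

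TM4SF in males was at 484, 539.7 and 413 CPM at 5 days and 189, 218 and 229 CPM at 20 days (log2 fold change -1.18, adjusted p = 0.0460), and it was the only fall called in both sexes. Of the rises, snoRNA:Psi18S-1377a (1.78 in males, adjusted p = 0.0370) and CG9935, an unnamed gene chosen after its values were seen (1.53, adjusted p = 0.0370), were called in both. The list medians in males were -0.45 for vesicle release, -0.63 for GABA and glutamate, -0.13 for complex I, -0.10 for complexes II to IV and 0.27 for cytosolic ribosomal proteins. Whether the sexes differ was tested as an interaction over 11332 genes, of which edgeR called 0 (0%), with 455 at an unadjusted p under 0.05, and DESeq2 called 18. Among the rises named here the widest gap between the sexes was that of CG10814, an unnamed gene, at 6.26, 2.74 and 0.680 CPM and 204, 127 and 153 CPM in females (log2 fold change 5.65, adjusted p = 0.0222) and 0.494, 0.726 and 0.437 CPM and 0, 0.844 and 0.462 CPM in males. Its interaction had an unadjusted p of 0.00124 and an adjusted p of 1.0, and the gene was chosen after its values were seen.

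**Figure D4:**
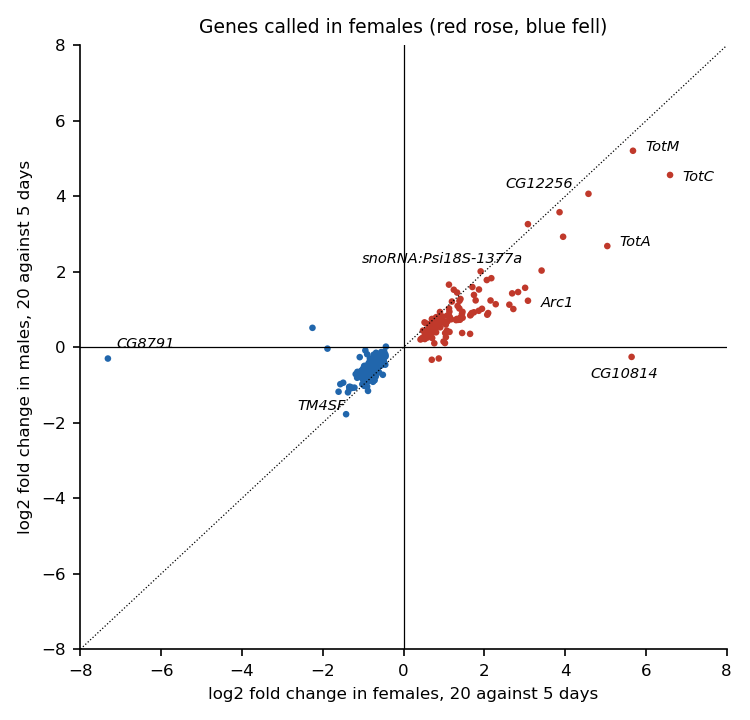
Log2 fold change of 20 against 5 days in females (horizontal) and males (vertical) for the genes called in females and tested in males, with rises in red, falls in blue and a dotted line where both sexes are equal. Most points lie in the lower left and upper right, 190 of 192 falls and 116 of 119 rises, and CG10814 stands apart with 5.65 in females and -0.25 in males, while the fitted female fold of CG8791, with no count at 20 days, is not a measured size.

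Values at 30 and 40 days, compared with the same 5-day libraries, stand beside those of 20 days as follows. TM4SF averaged 463, 152, 122 and 124 CPM at 5, 20, 30 and 40 days, so that the level of 20 days was near that of the later ages. Gad1 averaged 788, 310.2, 255.4 and 452 CPM, Arc1 375, 3171, 2965 and 3859 CPM and SIFa 62.1, 24.9, 24.3 and 13.7 CPM. The median log2 fold change of vesicle release genes against 5 days was -0.45, -0.86 and -0.02 for 20, 30 and 40 days, and that of complex I was -0.34, -0.39 and -0.88. For cytosolic ribosomal proteins it was 0.38, 0.37 and -0.38. All of these share the young libraries and the same F5B and F5C, and differences between the later ages and 20 days were not tested here.

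The fold change went with the exon length of the gene. The median was 0.28 for genes of up to 500 exon bases, 0.11 for over 500 and up to 1000, 0.02 for over 1000 and up to 2000, -0.09 for over 2000 and up to 4000 and -0.12 above 4000. In males the same medians were 0.20, 0.22, 0.12, -0.02 and -0.20. Rises had a median exon length of 1420 bases and falls of 2596. With the trend removed from each library, 449 genes were called (179 rose and 270 fell), among them 101 of the 120 rises and 175 of the 192 falls, and none of the 312 changed sign. The list medians were then -0.18 for vesicle endocytosis, -0.47 for GABA and glutamate and -0.12 for nicotinic receptors, where 5, 5 and 2 genes fell. For dpr, beat and side genes the median was then -0.47 and 5 fell, and for neuronal identity genes it was -0.11 and 2 fell. F5C stood apart here as well, with 42.9% of its counts on genes of over 4000 exon bases, against 31.9% in F5A, 31.5% in F5B and 30.9% to 33.2% at 20 days.

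**Figure D5:**
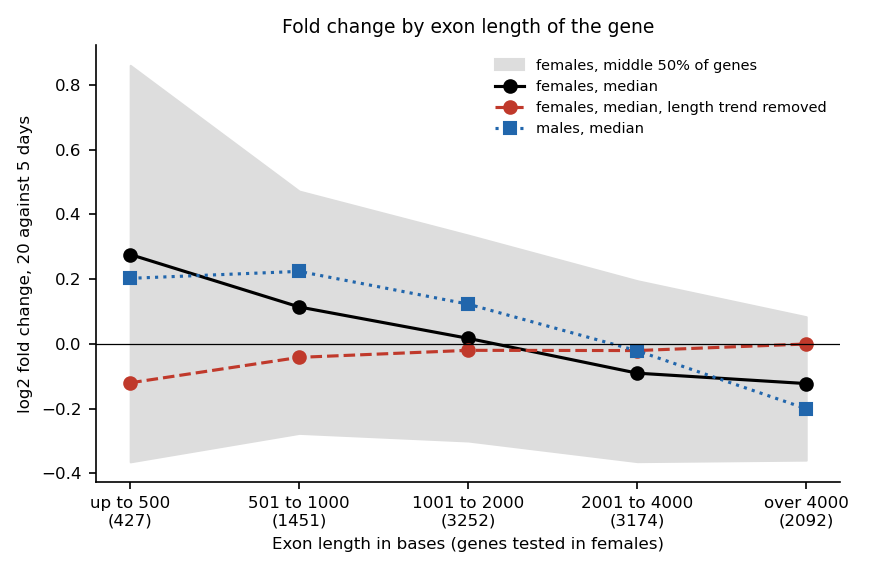
Median log2 fold change of 20 against 5 days by exon length class, with the number of genes tested in females under each class, for females (black, with the middle 50% of genes shaded), for females after removal of the length trend (red) and for males (blue). The female median goes from 0.28 for the shortest genes to -0.12 for the longest, and after removal the median of the shortest genes is -0.12, with the other classes within 0.05 of 0.

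The number of genes seen also differed. With every library thinned to 6770442 counts, 11472 to 11535 genes had at least 1 count at 5 days and 10622 to 10689 at 20 days. The difference was 848 genes (two-sided exact permutation test, p = 0.10, the smallest that 3 against 3 can give). At 30 and 40 days the ranges were 11342 to 11709 and 11476 to 11598, so the 20-day libraries were the lowest of the female ages, and in males 11370 to 11611 genes were seen at 5 days and 10609 to 11052 at 20 days. With a minimum of 5 counts the difference was 77 genes more at 20 days (exact permutation test, p = 0.50). The gap lay among rarer transcripts. Of 1539 genes with a mean of more than 0.2 and up to 1 CPM at 30 and 40 days, a mean of 1145 were seen at 5 days and 806 at 20 days. Of 1288 genes with a mean of more than 0.05 and up to 0.2 CPM there the means were 471 and 223, while of 8303 genes above 5 CPM there 8207 and 8210 were seen.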

How the data were processed

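The authors deposited raw counts of reads per gene, made per the labels and methods with Trimmomatic 0.35, STAR and HTSeq on the dm6 genome. The strand setting of the counting was not given in the sources used here. Counts were tested as deposited with edgeR 4.0.16 (limma 3.58.1, R 4.3.3): filterByExpr, TMM scaling and a robust quasi-likelihood fit over the 12 female libraries of 4 ages, with Benjamini-Hochberg adjustment over 10505 genes. The SE was computed from the fold change and the F statistic. DESeq2 1.42.0 was an alternative, as were other scalings, filters, thinning, a length correction and fits without each library. The thinned total was 6770442 counts. Genes were named as the 12 rises and 12 falls with the largest fold change (at least 5 CPM, named symbols, no overlap), the 6 of each direction with the smallest p, and in 50 gene lists the 4 smallest p or, in lists of at most 12 genes, all members. Other members of the lists, called or not, host and overlapping genes, and the genes marked in the text were named after their values were seen. Members and lists were chosen with earlier results of these data known. Of 17521 gene symbols 12872 matched the annotation as they stand, 4455 matched as older symbols and 194 did not match. On simulated counts with 50 genes per class, 6 of 50 rises and 5 of 50 falls of 2-fold were called, 35 and 33 of 4-fold, and 1 of 10305 unchanged genes. Each gene was drawn independently there, without differences that many genes of a library share, such as the gut genes of F5B. The rate of false calls in the real libraries was therefore not measured. Nothing in the labels says that replicates of an age came from separately reared flies, so p-values measure the spread between these pools. No replicate pair agreed within sampling noise (chi-square per degree of freedom 38.1 to 453). No sequences were used.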

Additional observations from a re-analysis of the deposited data

How the results depend on the processing

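The number of genes changed in females was 2 with the libraries of 5 and 20 days alone (1 rose and 1 fell), 913 with DESeq2 (413 and 500) and 7 without the libraries in which mex1 exceeded 10 CPM (5 and 2). Leaving out 1 library at a time gave 19 to 292 changed genes, 9 to 122 rises and 10 to 170 falls. Counts within 1.5 times of 312 were 300 with DESeq2's size factors in edgeR (131 rose, 169 fell), 356 with library totals (97 and 259), 233 without a filter, 349 with a filter of 1 CPM in 3 libraries, 323 from the contrast alone, 287 after thinning, 449 after the length correction (179 and 270) and 349 with both sexes in 1 fit. In males the 4 changed genes became 0 with the replicate block, 0 with 2 ages alone, 40 with both sexes in 1 fit, 217 with DESeq2, 1 without the mex1 library and 0 to 8 with 1 library left out. The interaction count of 0 became 18 with DESeq2. With the replicate letter as a block 405 female genes were called (134 rose, 271 fell), but the letters did not pair the samples, with correlations of -0.14, -0.04 and 0.12. The difference of -848 genes with a count at equal depth was -254 with at least 2 counts and 77 with at least 5. The cause of these differences was not tested. Depth limits rare transcripts, since a level of 0 at 20 days allows up to 3 counts of 12316789 to 16036581.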

Other observations

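Several gene groups that the comparison could have moved held no called gene in edgeR's test. Over all 10505 genes tested, 2174 were at an unadjusted p under 0.05 and 46.2% had fold changes above 0. Counts of a list near these shares are no more than those of all genes. None of 25 genes of monoamine synthesis, transport and reception was called, although 11 were lower at an unadjusted p under 0.05, 3 were lower by DESeq2 and the median was -0.55. None of 76 genes with Cyp symbols, cytochrome P450 genes but for the cyclophilin gene Cyp1, was called (at an unadjusted p under 0.05 there were 11 higher and 4 lower, and DESeq2 called 5 higher and 1 lower), nor any of 32 glutathione S-transferases (8 higher and 2 lower, 4 and 2 by DESeq2). Of 33 genes with the symbols of proteasome subunits, which take in Prosap, a synaptic scaffold gene, 26 had fold changes above 0, none was called (at an unadjusted p under 0.05 there were 6 higher and 0 lower) and DESeq2 called 1 higher.

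Among 14 clock genes none was called (1 higher at an unadjusted p under 0.05, 1 higher by DESeq2), and the same held for 31 translation factors (3 higher and 1 lower, 1 higher by DESeq2), 32 chromatin regulators (1 higher and 4 lower, 1 higher by DESeq2) and 9 genes of the JAK-STAT pathway (1 higher and 1 lower, 1 higher by DESeq2). Of 22 glial genes none was called (2 higher and 2 lower, 1 and 2 by DESeq2). None of 28 odorant-binding protein genes was called (1 higher and 2 lower, 1 and 1 by DESeq2), and their median was -0.53. No gene was called among 19 of axonal transport and the large cytoskeleton (0 higher and 4 lower, none by DESeq2), 19 cuticle proteins (1 higher and 3 lower, 0 and 2 by DESeq2), 11 of the extracellular matrix (3 higher and 0 lower, 1 higher by DESeq2), 6 genes whose symbols begin with His, histone genes but for the histamine-gated chloride channel gene HisCl1 (1 higher, 1 higher by DESeq2), 6 of neuropeptide processing (0 higher and 3 lower, 0 and 2 by DESeq2), 6 sex markers (1 higher, none by DESeq2), 5 glial identity markers (1 lower, 1 lower by DESeq2) and 25 retina markers (1 lower, 1 lower by DESeq2). All of the pairs of counts given first in brackets are at an unadjusted p under 0.05. The median of the retina markers was 0.48, with 20 of 25 above 0, and that of the 5 glial identity markers was -0.35, with 4 below 0.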
